A study of Mus musculus with 24 samples.

Results

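Ribosome biogenesis and nucleolar genes encode the proteins that make and assemble ribosomal subunits. They were described here in splenic NK cells through 40 genes out of the 45237 listed in the deposited table. These were chosen by gene name from general knowledge of the pathway, with earlier results of these data known. Of the 40, 4 belong to RNA polymerase I and its factor Ubtf, 7 are nucleolar scaffold and regulatory proteins, 3 belong to box C/D and 4 to box H/ACA small nucleolar ribonucleoproteins, 11 act on the small and 11 on the large subunit. All 40 passed the filter on low counts.

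Ribosomes are built in the nucleolus, where RNA polymerase I transcribes the precursor of ribosomal RNA. Box C/D and box H/ACA particles guide methylation and pseudouridine formation on that precursor, and assembly factors cut, fold and export the subunits. Lymphocytes that are activated grow before they divide and make more ribosomes as they do so, a program in which Myc and mTORC1 are well known regulators.

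NK cells were sorted from spleens of wild-type C57BL/6J mice, female and aged 7 to 9 weeks unless the study states otherwise, that carried no tumor or had received RMA or RMA-KR cells by intravenous injection. RMA is a T cell lymphoma line, and RMA-KR is its derivative made by CRISPR-Cas9 knockout of B2m, which removes MHC-I, with lentiviral expression of the NKG2D ligand Rae1-β and ZsGreen, then sorted and subcloned. The study reports ZsGreen in its RMA cells as well. Among other criteria, the sort took cells negative for CD3, CD5, TCR α/β and TCR γ/δ and positive in the channel shared by the NKp46 and NK1.1 antibodies. The 24 libraries fell into 7 groups: 4 from control mice, 3 from RMA-bearing mice at day 2 (early), 3 at day 4 (intermediate) and 3 at day 9 (late), and 3 from RMA-KR–bearing mice at day 2 (early), 5 at day 7 (intermediate) and 3 at day 14 (late).

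The models were sampled on different days at the intermediate and late stages, so tumor and day cannot be told apart there. The smallest library held 5138651 counts and the largest 14863500 (median 10489204). Levels are in normalized CPM, which are counts divided by the TMM-corrected library total. The p-values below measure the spread between samples. Libraries are numbered within a group as in the labels, and the numbers did not pair samples: the median correlation of same-numbered libraries, after removal of group means, was −0.007 over 64 pairs.

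The sorted cells carried NK cell transcripts throughout. Ncr1, which encodes NKp46, ran from 1625 to 4040 CPM and Klrb1c, which encodes NK1.1, from 1304 to 2544 CPM over the 24 libraries. Cd3e was at most 5 CPM, and Cd5 at most 1.2 CPM except for 23.5 in RMA early 2. Cd3d, singled out after its values were seen, was at 14.7 CPM in control 4 and at 21, 30.6 and 29.6 CPM in RMA-KR intermediate 3, 4 and 5, against 0.966 to 17.2 CPM in the other libraries. The 7 B cell markers summed to 0.309 to 54.5 CPM (most abundant Cd22), the 8 macrophage and monocyte markers to 4.14 to 79.9 CPM (Cd68) and the 11 T cell and RMA lymphoma markers to 351 to 681 CPM (Trbc1, which NK cells also transcribe). The 6 plasma cell markers summed to 213 to 580 CPM (Ighm), the 7 granulocyte markers to 0 to 17.2 CPM (Ngp) and the 6 red blood cell markers to 0 to 3.7 CPM (Alas2). None of these markers was at 0 in every library. In bulk RNA, fewer cells of a type and less RNA per cell cannot be told apart.

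Of the 24 libraries, 4 stood apart from the other 20, and 3 of them were in the same group. The summed level of 13 immediate early and heat shock genes was 1296 CPM in control 4 and 1253, 1389 and 1277 CPM in RMA-KR intermediate 3, 4 and 5, against 4368 to 9862 CPM in the others. The same 4 libraries had counts on 27820, 24676, 26285 and 24621 genes, more than the 15263 to 24234 genes of the other libraries. Their 8 NK cell markers summed to 19107, 16659, 16130 and 15036 CPM, below the 19915 to 31660 CPM of the rest, and their B cell markers to 30.6, 51.5, 54.5 and 36 CPM, against at most 41.5 CPM in the rest. Within RMA-KR day 7, proliferation genes also differed, with sums of 1612 and 1844 CPM in libraries 1 and 2 and of 4082, 2146 and 3253 CPM in libraries 3, 4 and 5. Medians of the 40 genes against control and the results that include RMA-KR day 7 are given with all 24 and also without these 4, an alternative chosen after their values were seen, and their part in the results was not tested.

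**Figure D1:**
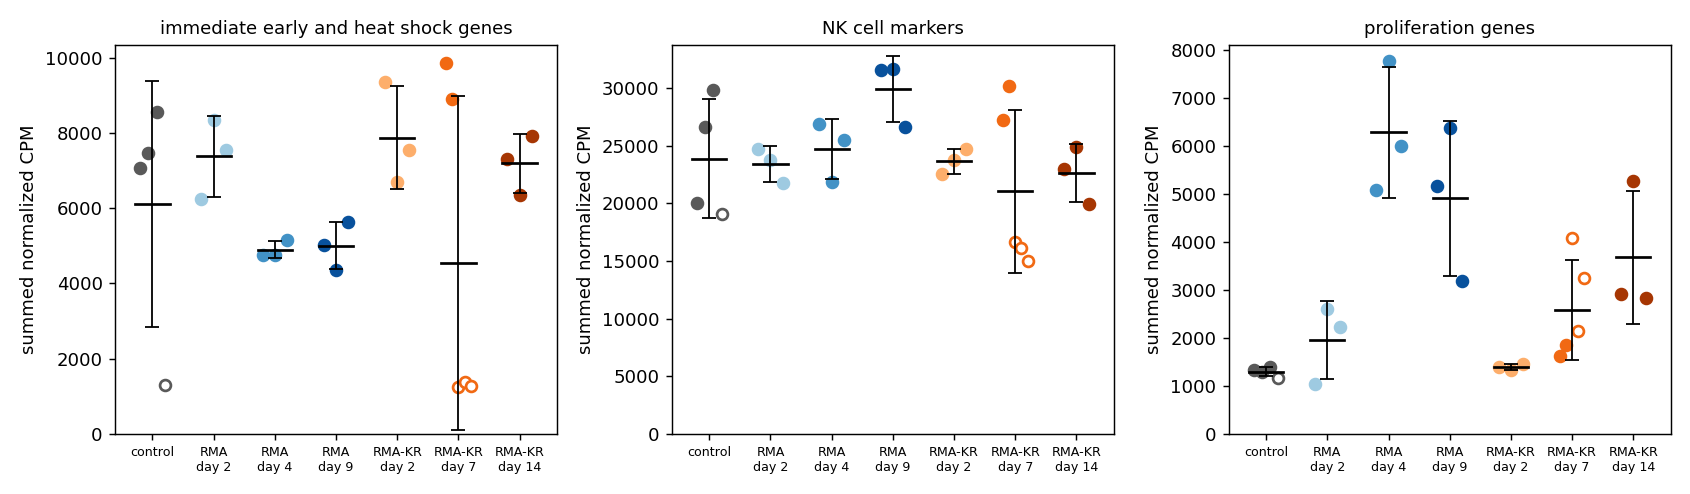
Summed normalized CPM of immediate early and heat shock genes, NK cell markers and proliferation genes in each of the 24 libraries, with 1 point per library. Control 4 and RMA-KR intermediate 3, 4 and 5 lie at 1253 to 1389 CPM for the immediate early and heat shock genes, and the other 20 libraries at 4368 to 9862 CPM.

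Among the 40 genes, Npm1 had the highest mean level per length, 58.4 CPM per kb of exon, followed by Nhp2 at 45.5, Bop1 at 41.7, Ncl at 41.3 and Nop10 at 37.4 CPM per kb. Fbl, the methyltransferase of box C/D particles, was lowest at 1.05 CPM per kb, with Utp20 at 1.34 and Wdr12 at 1.7. No member was at 0 counts in any library, and 8 were under 2 CPM in at least 1 library. Reads of some members are hard to place: Fbl shared 70.4% of its 50-base stretches with transcripts of other genes, Npm1 40.9%, Nop56 37.6%, Npm3 31.9% and Pes1 21.0%. Another limit is that 18 members overlap a gene on the other strand, among them Nhp2, Dkc1, Mybbp1a and Bysl, and the strand setting of the counting is not given.

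Promoter windows of 250 bases before to 50 after the start were available from RefSeq (GRCm38.p6) for 35 of the 40 members. They were missing for Fbl, Rrp12, Rrs1, Npm1 and Bop1. The E-box CACGTG, the best-known motif bound by Myc with Max, reads the same on both strands and was the only motif searched. It was present in 8 of 35 members (22.9%) and in 2187 of 27025 genes with a window (8.09%). From 100 bases before to 50 after the start the shares were 22.9% and 5.0%. The 8 members were Ltv1, Mybbp1a, Nop2, Pes1, Tsr1, Utp20, Utp4 and Wdr43. Shown 5′ to 3′ with CACGTG in capitals are Mybbp1a (chr11:72441077-72441376, + strand), Pes1 (chr11:3963725-3964024, + strand) and Wdr43 (chr17:71615965-71616264, + strand), which hold the motif and are described with their values further on, and Nhp2 (chr11:51619523-51619822, + strand), the member called in the most comparisons, in whose window these letters do not occur.
Mybbp1a: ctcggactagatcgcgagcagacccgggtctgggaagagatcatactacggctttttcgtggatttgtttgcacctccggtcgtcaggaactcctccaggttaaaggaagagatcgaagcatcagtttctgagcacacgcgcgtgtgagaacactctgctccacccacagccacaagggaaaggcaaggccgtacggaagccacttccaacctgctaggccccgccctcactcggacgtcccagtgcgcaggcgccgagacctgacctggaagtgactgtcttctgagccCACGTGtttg
Pes1: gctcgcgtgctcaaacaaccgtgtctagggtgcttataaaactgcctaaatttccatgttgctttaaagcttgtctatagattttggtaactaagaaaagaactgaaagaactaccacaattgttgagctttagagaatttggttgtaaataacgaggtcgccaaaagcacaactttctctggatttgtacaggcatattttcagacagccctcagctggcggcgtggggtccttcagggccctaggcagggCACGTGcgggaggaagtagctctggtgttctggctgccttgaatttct
Wdr43: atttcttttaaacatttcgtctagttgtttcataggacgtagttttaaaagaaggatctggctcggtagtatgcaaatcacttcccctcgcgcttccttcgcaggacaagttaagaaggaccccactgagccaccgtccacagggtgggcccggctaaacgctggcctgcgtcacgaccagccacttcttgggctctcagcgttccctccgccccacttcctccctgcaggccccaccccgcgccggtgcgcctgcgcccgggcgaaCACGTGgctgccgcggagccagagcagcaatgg
Nhp2: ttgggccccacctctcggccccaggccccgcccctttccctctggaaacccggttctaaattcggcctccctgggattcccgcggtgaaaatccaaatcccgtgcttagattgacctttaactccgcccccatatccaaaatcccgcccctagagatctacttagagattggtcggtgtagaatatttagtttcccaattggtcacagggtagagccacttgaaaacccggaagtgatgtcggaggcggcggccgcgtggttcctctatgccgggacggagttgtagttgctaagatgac
A match is a description of the sequence and not evidence of binding.

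Summed over the 40 genes, the 8 highest libraries were the 3 of RMA day 4, RMA late 1 and 2 and RMA-KR intermediate 3, 4 and 5. Control libraries summed to 2073, 2631, 2481 and 2497 CPM. The sums in RMA-bearing mice were 2032, 2563 and 2380 CPM at day 2, 3165, 3856 and 3301 at day 4 and 3041, 3240 and 2457 at day 9. All 3 libraries of RMA day 4 and RMA late 1 and 2 lay above every control, and RMA late 3 did not. RMA-KR–bearing mice gave 2239, 2063 and 1976 CPM at day 2, 2509, 2754, 4120, 3126 and 3966 at day 7 and 2230, 2625 and 2361 at day 14. At day 7, libraries 3, 4 and 5 lay above every control while library 1 lay within the control range and library 2 at 2754 CPM was just above it. The members made up 0.2% to 0.433% of all counts of a library.

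**Figure D2:**
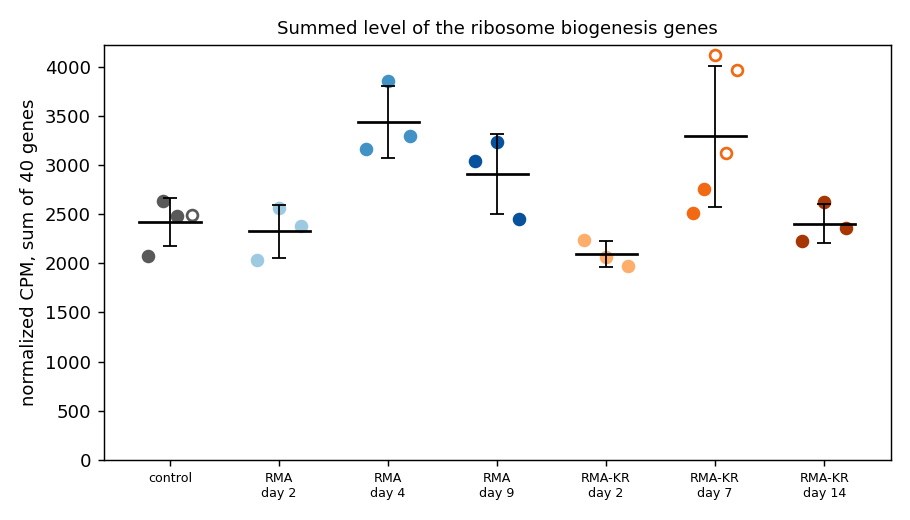
Summed normalized CPM of the 40 genes in each library, by group. RMA day 4 lies at 3165 to 3856 CPM and control at 2073 to 2631 CPM, and RMA-KR day 7 spreads from 2509 to 4120 CPM.

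In NK cells from RMA-bearing mice, the genes stood above control at day 4 and less so at day 9, while at day 2 they did not. All comparisons with control share the 4 control libraries. At day 4, 39 of 40 members had a log2 fold change above 0, with a median of 0.45, against 36.6% of all 17097 genes and a median of −0.29. Of the 40, 2 rose by edgeR's test, Nhp2 and Dkc1, and 2.35% of all genes were called. DESeq2 called 3 members, and 546 genes up and 409 down over all genes. Every RMA day 4 library lay above every control library for 12 members, and this held for 10.2% of all genes. No member had every library below, a pattern of 10.5% of all genes. Without the 4 libraries, Nhp2 alone was called, 39 members were above 0 and the median was 0.54, with 1.48% of all genes called and an all-gene median of −0.22.

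Other measures differed in the same RMA libraries. Counts fell on 15878, 18247 and 15289 genes at day 4 and on 15263, 19436 and 24234 at day 9, against 19370 to 27820 in control. The shares and medians of all genes were not matched to the level of the 40 genes. Immediate early and heat shock genes summed to 4751, 4767 and 5150 CPM at day 4 of RMA and to 5008, 4368 and 5625 CPM at day 9, below the 6232 to 9862 CPM of the other libraries outside the 4. The 8 NK cell markers had a median log2 fold change of −0.49 at day 4 of RMA, with 0 called by edgeR (6 at an unadjusted p under 0.05, 1 by DESeq2), and of −0.13 at day 9, with 1 called lower, Eomes (log2 fold change −0.75, SE 0.19, edgeR adjusted p = 0.0352). That call was held in 8 of 15 alternatives and lost without control 1 (0.131) or 4 (0.0798), RMA late 1 (0.236), 2 (0.204) or 3 (0.0812), without the 4 libraries (0.0771) and with no filter (0.136). At day 9 of RMA, T cell and RMA lymphoma markers summed to 672, 567 and 579 CPM, against 408 to 487 CPM in control, and macrophage and monocyte markers to 36.7, 33.5 and 51.1 CPM, against 8.74 to 18.5 CPM in control. The part of these measures in the levels of the 40 genes was not tested.

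At day 9 of RMA, 30 of 40 members were above 0 with a median of 0.22 (0.12 to 0.41 with single libraries left out), against −0.18 for all genes. Nhp2 and Npm1 rose, and 2.66% of all genes were called. For 4 members, all 3 libraries lay above every control, as for 9.24% of all genes, and for 0 members all lay below, against 8.81% of all genes. DESeq2 called 4 members, adding Dkc1 and Npm3, with 683 of all genes up and 371 down. Nhp2 and Npm1 were also called without the 4 libraries, where 33 members were above 0, the median was 0.33 against −0.12 for all genes, and 1.68% of all genes were called. At day 2, 14 members were above 0 and the median was −0.12, against −0.06 for all genes. EdgeR called 0 of 40 there and 0% of all genes, with 3 members and 7.04% of all genes at an unadjusted p under 0.05 and 0 members called by DESeq2. No member had every RMA day 2 library above every control, a pattern found in 2.12% of all genes, and 3 had every one below, Ubtf, Nop2 and Heatr1 (Nop2 and Heatr1 named after their values were seen), as did 4.94% of all genes. Heatr1 did not pass there (log2 fold change −1.95, SE 0.64, edgeR adjusted p = 0.577) and was called with no filter (0.0074) and without RMA early 3 (0.000801), over a range of 0.000801 to 0.879. The median was −0.02 without the 4 libraries, against 0.02 for all genes.

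When NK cells came from RMA-KR–bearing mice, no member passed edgeR's test against control at any of the 3 stages. At day 2 the count was 0 of 40 (5 at an unadjusted p under 0.05, as 8.71% of all genes; 0 by DESeq2), with 0.0994% of all genes called. There 13 members were above 0, the median was −0.12 against 0.00 for all genes, and 1 member had every library above every control, a pattern of 4.5% of all genes. For 3 members, Mybbp1a, Ncl and Npm1, every library was below every control, as for 6.01% of all genes, and without the 4 libraries the median was −0.11 against 0.07 for all genes. At day 7, 38 of 40 members were above 0 and the median was 0.57, against 0.01 for all genes. EdgeR called 0 members (6 at an unadjusted p under 0.05, as 5.91% of all genes; 1 by DESeq2, Nhp2, which called 30 of all genes up and 11 down), with 0.0175% of all genes called, and 2 members had every library above every control, as did 1.33% of all genes, and 0 members had every library below, against 1.29%. Without the 4 libraries, which leaves 2 libraries against 3, 28 members were above 0 and the median was 0.18, with −0.14 for all genes. EdgeR then called 0 of 40 and 0 of all genes, and 0 members had an unadjusted p under 0.05. At day 14, 20 members were above 0 and the median was −0.02, against −0.18 for all genes. The edgeR count was 0 (2 at an unadjusted p under 0.05, as 14.2% of all genes; 0 by DESeq2), with 1.22% of all genes called, and 2 members had every library above every control, as did 5.88% of all genes, while 1 member, Polr1a, had every library below every control, as did 7.73% of all genes. There 24 members were above 0 without the 4 libraries, with a median of 0.12 against −0.08 for all genes.

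**Figure D3:**
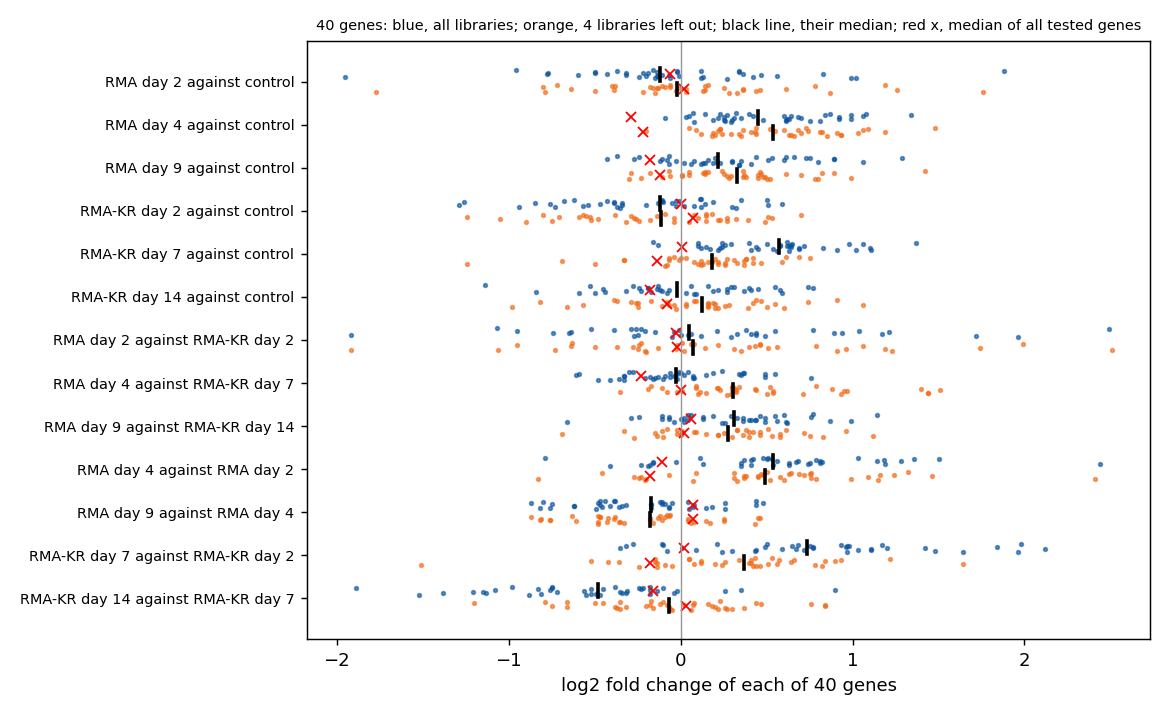
Log2 fold changes of the 40 genes in each comparison, with all 24 libraries in blue and without the 4 libraries in orange. Black lines mark the members' medians and red crosses the medians of all genes: the members' median is 0.45 in RMA day 4 and 0.57 in RMA-KR day 7 against control, where it is 0.18 without the 4 libraries.

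The box H/ACA proteins held both genes that rose at day 4 of RMA. Nhp2 is a core protein of these particles, which guide pseudouridine formation. Nhp2 was at 25.1, 32.2, 29.1 and 39.3 CPM in control NK cells, 25.6, 37.8 and 29.9 in RMA day 2, 76.2, 89.9 and 73.4 in RMA day 4 and 91.5, 86.9 and 52.7 in RMA day 9. Nhp2 in RMA-KR–bearing mice was at 26.3, 38.2 and 29.4 CPM at day 2, 46.5, 45.2, 64.7, 65.9 and 87.2 at day 7 and 31, 69.5 and 57.5 at day 14. All RMA day 4 and day 9 libraries and all RMA-KR day 7 libraries were above every control, RMA-KR late 1 was within the control range, and both day 2 groups overlapped control. Nhp2 rose at day 4 of RMA (log2 fold change 1.34, SE 0.29, edgeR adjusted p = 0.0111, n = 3 against 4) and at day 9 (log2 fold change 1.29, SE 0.29, edgeR adjusted p = 0.0133). In RMA-KR–bearing mice it did not pass, with log2 fold change 0.98, SE 0.26, edgeR adjusted p = 0.497 at day 7 (0.69, SE 0.33 and 0.733 without the 4 libraries) and log2 fold change 0.74, SE 0.29, edgeR adjusted p = 0.28 at day 14. The day 4 call was lost without control 1 (edgeR adjusted p = 0.0541) or RMA intermediate 2 (0.0618), over a range of 0.000407 to 0.0618 in 15 alternatives. At day 9 it was lost without control 1 (0.0583), RMA late 1 (0.104) or RMA late 2 (0.0872), over a range of 0.000627 to 0.104. Nhp2 overlaps Rmnd5b on the other strand.

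Dkc1 encodes dyskerin, the enzyme that forms pseudouridine in these particles. Dkc1 was at 76.9, 113, 90 and 84 CPM in control NK cells, 120, 115 and 111 in RMA day 2, 147, 200 and 140 in RMA day 4 and 168, 177 and 108 in RMA day 9. Dkc1 in RMA-KR–bearing mice was at 83.5, 90.5 and 92.5 CPM at day 2, 95.7, 142, 178, 133 and 162 at day 7 and 144, 118 and 137 at day 14. All RMA day 4 and RMA-KR day 14 libraries lay above every control, and RMA late 3 did not. Dkc1 rose at day 4 of RMA (log2 fold change 0.84, SE 0.20, edgeR adjusted p = 0.0262), and missed the threshold at day 9 (log2 fold change 0.73, SE 0.20, edgeR adjusted p = 0.0561), at day 7 of RMA-KR (log2 fold change 0.65, SE 0.18, edgeR adjusted p = 0.497; 0.37, SE 0.23 and 0.733 without the 4 libraries) and at day 14 (log2 fold change 0.55, SE 0.20, edgeR adjusted p = 0.259). The call was held in 8 of 15 alternatives. It was lost without control 1 (edgeR adjusted p = 0.113), control 3 (0.083), control 4 (0.1) or RMA intermediate 2 (0.196), without the 4 libraries (0.0647), with no filter (0.173) and with the replicate number as a block (0.0701), over a range of 0.00362 to 0.196. Nop10 is another core protein of the particle. Nop10 was at 30.3, 48, 45.4 and 34.6 CPM in control NK cells, 27.6, 43.3 and 37 in RMA day 2, 48.9, 48 and 46.3 in RMA day 4 and 61.3, 76.8 and 32.9 in RMA day 9. Nop10 in RMA-KR–bearing mice was at 22.2, 30.8 and 21 CPM at day 2, 46, 31.5, 58.2, 49.9 and 55.8 at day 7 and 30.3, 38.2 and 32.4 at day 14. RMA late 1 and 2 were the highest of the 24 libraries, every group overlapped control, and Gar1, the remaining member, was under 12 CPM in every library.

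Nucleolar scaffold proteins include the most abundant member per length. Npm1, nucleophosmin, is a histone chaperone and nucleolar scaffold. Npm1 was at 115, 129, 119 and 117 CPM in control NK cells, 128, 98.5 and 131 in RMA day 2, 213, 171 and 171 in RMA day 4 and 217, 247 and 164 in RMA day 9. Npm1 in RMA-KR–bearing mice was at 82, 102 and 100 CPM at day 2, 122, 138, 264, 187 and 254 at day 7 and 169, 156 and 139 at day 14. All RMA day 4 and day 9 libraries and all RMA-KR day 14 libraries lay above every control, and in RMA-KR day 7 libraries 3, 4 and 5 were highest, library 2 was above and library 1 within the control range. Npm1 rose at day 9 of RMA (log2 fold change 0.80, SE 0.22, edgeR adjusted p = 0.0489), and missed the threshold at day 4 (log2 fold change 0.63, SE 0.22, edgeR adjusted p = 0.168) and at day 7 of RMA-KR (log2 fold change 0.69, SE 0.20, edgeR adjusted p = 0.497; 0.12, SE 0.20 and 0.97 without the 4 libraries). The day 9 call was held in 6 of 15 alternatives. It was lost without control 1 (edgeR adjusted p = 0.143), 2 (0.0961), 3 (0.12) or 4 (0.142), without RMA late 1 (0.19) or 2 (0.293), with DESeq2's size factors (0.0522), with no filter (0.155) and with the replicate block (0.0918), over a range of 0.0157 to 0.293.

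Ncl encodes nucleolin, which binds ribosomal RNA precursors. Ncl was at 406, 480, 398 and 339 CPM in control NK cells, 284, 391 and 435 in RMA day 2, 612, 613 and 642 in RMA day 4 and 446, 489 and 470 in RMA day 9. Ncl in RMA-KR–bearing mice was at 209, 308 and 318 CPM at day 2, 298, 375, 571, 422 and 545 at day 7 and 367, 337 and 338 at day 14. The 3 RMA day 4 libraries were above every other library, and all RMA-KR day 2 libraries were below every control. Neither difference passed (log2 fold change 0.62, SE 0.19, edgeR adjusted p = 0.106 at day 4 of RMA; log2 fold change −0.54, SE 0.20, edgeR adjusted p = 0.436 at day 2 of RMA-KR). Npm3 is a relative of nucleophosmin. Npm3 was at 7.21, 16.6, 13.3 and 10 CPM in control NK cells, 9.34, 10.7 and 10.7 in RMA day 2, 21, 24.2 and 24.9 in RMA day 4 and 25.7, 29.4 and 18.4 in RMA day 9. Npm3 in RMA-KR–bearing mice was at 12.6, 7.05 and 11 CPM at day 2, 14.7, 13.8, 15.4, 13.3 and 12 at day 7 and 12.5, 15 and 12.8 at day 14. All RMA day 4 and day 9 libraries lay above every other library, and the edgeR test was missed at day 4 (log2 fold change 0.99, SE 0.37, edgeR adjusted p = 0.214) and day 9 (log2 fold change 1.06, SE 0.37, edgeR adjusted p = 0.161), while DESeq2 called both.

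Box C/D particles guide methylation of ribosomal RNA, and Nop56 and Nop58 are their paired core proteins. Nop58 was at 71.5, 103, 88.4 and 55.3 CPM in control NK cells, 105, 111 and 85.9 in RMA day 2, 146, 159 and 129 in RMA day 4 and 123, 202 and 76 in RMA day 9. Nop58 in RMA-KR–bearing mice was at 75.8, 51.8 and 50.1 CPM at day 2, 89.9, 125, 161, 91.7 and 96.2 at day 7 and 55.3, 125 and 111 at day 14. RMA day 4 lay above every control, and RMA late 3 and RMA-KR late 1 did not. The log2 fold change of Nop58 was 0.87 at day 4 of RMA (SE 0.30, edgeR adjusted p = 0.168) and 0.75 at day 9 (SE 0.30, edgeR adjusted p = 0.254). Nop56 was at 86.5, 108, 128 and 108 CPM in control NK cells, 66, 168 and 83.8 in RMA day 2, 109, 193 and 126 in RMA day 4 and 141, 189 and 110 in RMA day 9. Nop56 in RMA-KR–bearing mice was at 156, 146 and 155 CPM at day 2, 126, 115, 191, 113 and 167 at day 7 and 102, 140 and 118 at day 14. All 3 RMA-KR day 2 libraries of Nop56 lay above every control, and the other groups overlapped control.

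RNA polymerase I members had a median log2 fold change against control of 0.18 at day 4 and −0.16 at day 9 of RMA, and 0.17 (0.16 without the 4 libraries) at day 7 and −0.21 at day 14 of RMA-KR. Without the 4 libraries the medians were 0.27 at day 4 and −0.09 at day 9 of RMA, and −0.13 at day 14 of RMA-KR. Single members differed from these medians. Polr1a, chosen for naming after its values were seen, was at 11.6 to 16.9 CPM in RMA-KR day 14, below every control (22.5 to 39.5 CPM), and did not pass (log2 fold change −1.14, SE 0.74, edgeR adjusted p = 0.48), nor at day 2 of RMA (log2 fold change −0.96, SE 0.74, edgeR adjusted p = 0.806). Ubtf binds the ribosomal gene promoter. Ubtf was at 162, 222, 210 and 167 CPM in control NK cells, 152, 138 and 150 in RMA day 2, 195, 216 and 218 in RMA day 4 and 147, 162 and 176 in RMA day 9. Ubtf in RMA-KR–bearing mice was at 205, 164 and 159 CPM at day 2, 190, 261, 186, 160 and 225 at day 7 and 110, 179 and 182 at day 14. Each group overlapped control except RMA day 2, whose libraries lay below every control without passing the test (log2 fold change −0.37, SE 0.19, edgeR adjusted p = 0.705). Polr1c is a subunit shared with RNA polymerase III, and every group of it overlapped control. Polr1c was at 28.1, 31.4, 39.4 and 43.7 CPM in control NK cells, 33.5, 42.4 and 40.1 in RMA day 2, 53.5, 43.5 and 28 in RMA day 4 and 77.3, 49.1 and 42.9 in RMA day 9. Polr1c in RMA-KR–bearing mice was at 48, 59.8 and 28.2 CPM at day 2, 35.3, 42.5, 44.6, 37 and 51 at day 7 and 51.7, 43.8 and 15.8 at day 14.

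Subunit assembly factors had median log2 fold changes of 0.30 (small) and 0.42 (large) at day 4 of RMA, 0.14 and 0.30 at day 9, 0.56 and 0.58 at day 7 of RMA-KR (0.33 and 0.03 without the 4 libraries), and −0.08 and 0.27 at day 14. Without the 4 libraries the small and large medians were 0.44 and 0.36 at day 4 and 0.28 and 0.25 at day 9 of RMA. At day 14 of RMA-KR they were then 0.03 and 0.22. Bop1, a partner of Pes1 in maturing the large subunit, had the highest mean CPM of the 11 large subunit genes. Bop1 was at 81.7, 129, 133 and 138 CPM in control NK cells, 110, 93.5 and 114 in RMA day 2, 145, 214 and 189 in RMA day 4 and 92, 96 and 113 in RMA day 9. Bop1 in RMA-KR–bearing mice was at 90.8, 107 and 77.3 CPM at day 2, 166, 127, 162, 134 and 132 at day 7 and 77.7, 114 and 124 at day 14. All RMA day 4 libraries lay above every control, and control 1 was well below the other controls. Bop1 missed the threshold at day 4 (log2 fold change 0.60, SE 0.20, edgeR adjusted p = 0.147). Pes1 was at 63.8, 80.4, 52.6 and 61.4 CPM in control NK cells, 33.2, 72.8 and 37.5 in RMA day 2, 67.2, 89.8 and 73 in RMA day 4 and 75.4, 82.4 and 58.1 in RMA day 9. Pes1 in RMA-KR–bearing mice was at 56.5, 46.5 and 44.7 CPM at day 2, 61.2, 71, 87.2, 74 and 53 at day 7 and 71.5, 72.7 and 120 at day 14. Every group of Pes1 overlapped control, RMA-KR late 3 at 120 CPM was the highest library, and Pes1 missed the threshold at day 14 of RMA-KR (log2 fold change 0.45, SE 0.26, edgeR adjusted p = 0.427).

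Wdr43 and Bysl act in small subunit processing and had the highest mean CPM of its 11 genes. Wdr43 was at 92.6, 112, 95.7 and 110 CPM in control NK cells, 80.9, 182 and 109 in RMA day 2, 107, 131 and 87.3 in RMA day 4 and 158, 136 and 93.5 in RMA day 9. Wdr43 in RMA-KR–bearing mice was at 113, 101 and 171 CPM at day 2, 113, 162, 174, 138 and 170 at day 7 and 167, 113 and 48.6 at day 14. All 5 RMA-KR day 7 libraries of Wdr43 were above every control (log2 fold change 0.56, SE 0.28, edgeR adjusted p = 0.859; 0.47, SE 0.39 and 0.801 without the 4 libraries). Bysl was at 50.6, 64.7, 56.6 and 55.4 CPM in control NK cells, 34.4, 57.1 and 64.2 in RMA day 2, 54.7, 113 and 91.8 in RMA day 4 and 57.2, 89.9 and 41.4 in RMA day 9. Bysl in RMA-KR–bearing mice was at 59.1, 27 and 28.7 CPM at day 2, 89.5, 57.9, 61.1, 101 and 103 at day 7 and 15.4, 72.9 and 6.46 at day 14. Bysl varied between libraries of a group, from 6.46 to 72.9 CPM within RMA-KR day 14, and did not pass in any comparison with control. It stood at −0.84 on the log2 scale at day 14 of RMA-KR (SE 0.52, edgeR adjusted p = 0.447), and without RMA-KR late 2 at −2.34, where Bysl was called (0.013), over a range of 0.013 to 0.817. The 24 members without values per library here lay between 0.0964 CPM (Utp20) and 143 CPM (Nop2) in single libraries.

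**Figure D4:**
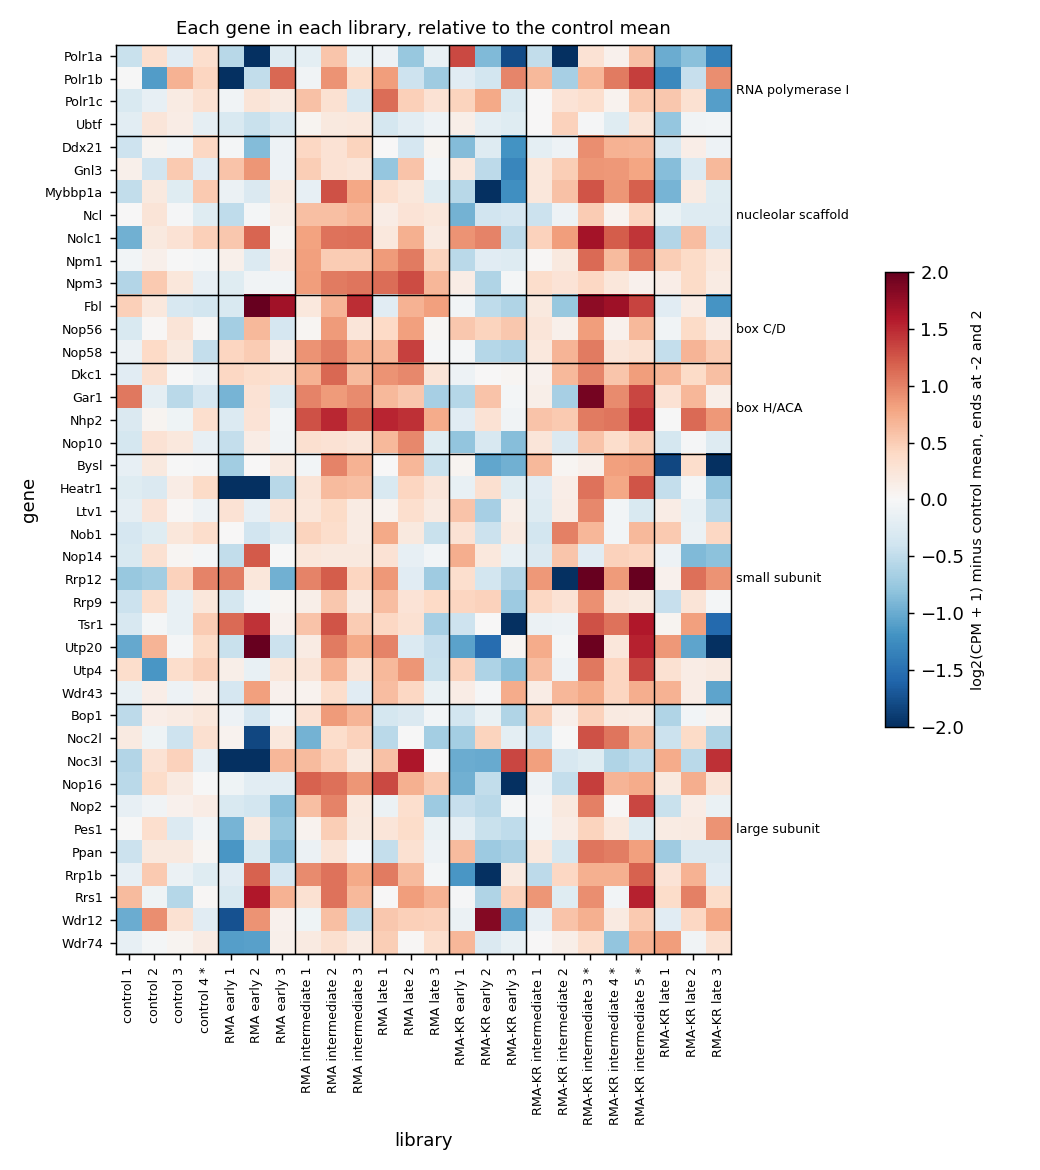
Level of the 40 genes in the 24 libraries, relative to the control mean on a log2 scale, ordered by role, with asterisks on the 4 libraries that stood apart. The medians over members are highest in RMA-KR intermediate 3 (0.92) and 5 (0.74) and in RMA intermediate 2 (0.66).

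**Figure D5:**
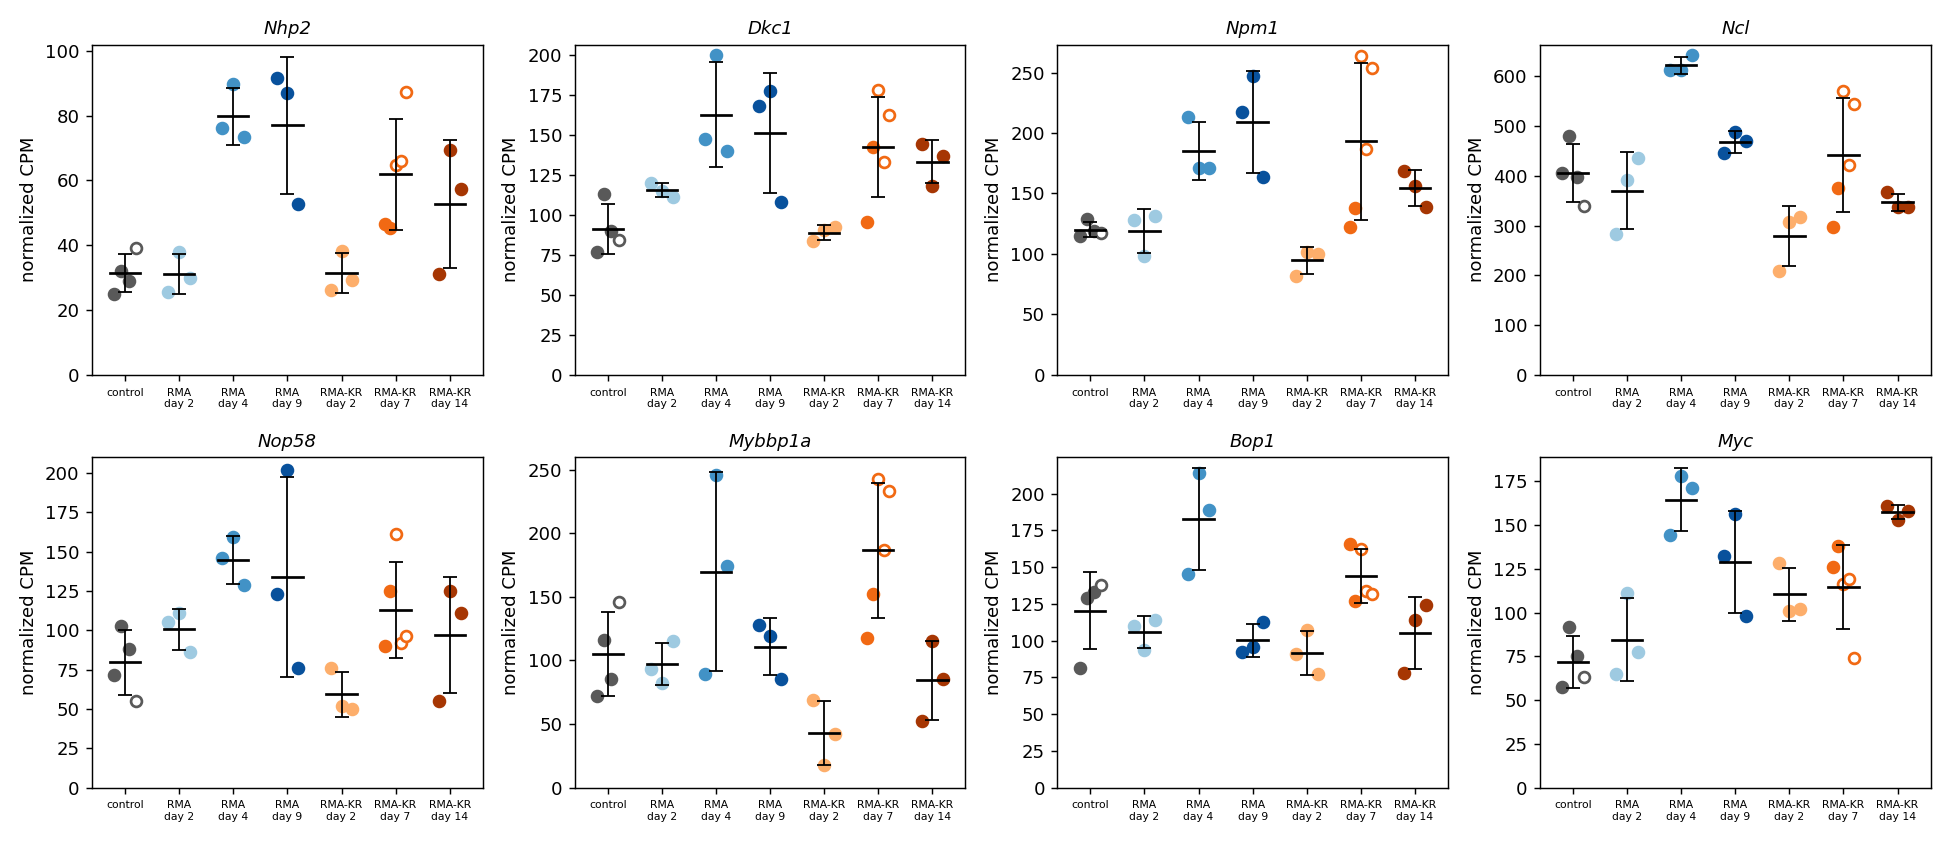
Normalized CPM of 8 genes in each library, with bars for the group mean ± SD and open circles for the 4 libraries that stood apart. Nhp2 was at 25.1 to 39.3 CPM in control and at 73.4 to 89.9 CPM in RMA day 4.

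Between the models no member passed edgeR's test with all libraries. At day 2, RMA against RMA-KR gave a median of 0.05 (0.07 to 0.21 with single libraries left out), against −0.03 for all genes, with 0 of 40 called (7 at an unadjusted p under 0.05, as 12.3% of all genes; 0 by DESeq2) and 0.339% of all genes called. At the intermediate stage, RMA day 4 against RMA-KR day 7 gave −0.03, against −0.23 for all genes, with 0 called (2 at an unadjusted p under 0.05, as 14.2% of all genes; 0 by DESeq2) and 0.643% of all genes called. Without the 4 libraries that comparison, now 3 against 2, had a median of 0.31 with 34 members above 0, and Ncl was higher in RMA (log2 fold change 0.88, edgeR adjusted p = 0.0473), with 0.501% of all genes called and an all-gene median of 0.00.

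At the late stage, RMA day 9 against RMA-KR day 14, 32 of 40 members were above 0 and the median was 0.31 (0.16 to 0.44 with single libraries left out), against 0.06 for all genes. EdgeR called 0 of 40 (3 at an unadjusted p under 0.05, as 7.31% of all genes; 0 by DESeq2) and 0% of all genes. The 3 with the lowest p were Nop10 (log2 fold change 0.76, SE 0.31, edgeR adjusted p = 0.655), Npm3 (log2 fold change 0.87, SE 0.40, edgeR adjusted p = 0.655) and Ncl (log2 fold change 0.43, SE 0.21, edgeR adjusted p = 0.655). All RMA day 9 libraries lay above every RMA-KR day 14 library for Npm3 and Ncl, and the values of Nop10 overlapped. Other measures also differed without overlap. NK cell markers summed to 26645 to 31660 CPM in RMA and 19915 to 24919 CPM in RMA-KR, with a median log2 fold change of 0.34. Plasma cell markers summed to 332 to 380 CPM in RMA and 404 to 580 CPM in RMA-KR. Most of these sums was Ighm, which by itself overlapped, at 330 to 379 and 364 to 483 CPM. Igkc was at 0.651 to 1.2 CPM in RMA and at 1.25, 134 and 26.3 CPM in RMA-KR. Immediate early and heat shock genes summed to 4368 to 5625 and 6358 to 7922 CPM. The part of these measures was not tested.

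Within the RMA model, the members stood higher at day 4 than at day 2, and at day 9 most were lower than at day 4. From day 2 to day 4, 32 of 40 members were above 0 with a median of 0.53, against −0.11 for all genes, and 13 had an unadjusted p under 0.05, as did 19.6% of all genes. Nhp2 alone rose (log2 fold change 1.36, SE 0.32, edgeR adjusted p = 0.0241), with 2.33% of all genes called, while DESeq2 called 6 members, and 612 genes up and 751 down over all genes. The Nhp2 call was lost without RMA early 1 (edgeR adjusted p = 0.135) or RMA intermediate 1 (0.065), 2 (0.0999) or 3 (0.0854) and in a fit of the 2 groups only (0.0687), over a range of 0.00272 to 0.135 in 14 alternatives. Ncl and Nhp2 were called and the median was 0.49 without the 4 libraries, where 2.1% of all genes were called and their median was −0.18. TMM called 269 genes up and 130 down over all genes here, and DESeq2's size factors 199 and 185. From day 4 to day 9, 11 members were above 0 and the median was −0.17, against 0.07 for all genes. EdgeR called 0 of 40 (2 at an unadjusted p under 0.05, as 4.46% of all genes; 1 by DESeq2, Bop1, which called 31 of all genes up and 10 down) and 0% of all genes. Bop1 was at 145, 214 and 189 CPM at day 4 and 92, 96 and 113 CPM at day 9, without overlap (log2 fold change −0.87, SE 0.22, edgeR adjusted p = 0.901).

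Within the RMA-KR model, the members stood above day 2 at day 7, a comparison that includes 3 of the libraries that stood apart. With all libraries, 34 of 40 members were above 0, the median was 0.74 against 0.02 for all genes, and 18 members had an unadjusted p under 0.05, as did 13.8% of all genes. The 3 members that rose were Npm1 (log2 fold change 1.03, SE 0.22, edgeR adjusted p = 0.0308), the RNA helicase Ddx21 and Mybbp1a, a nucleolar protein that binds Myb, and 0.632% of all genes were called. DESeq2 called 9 members, and 468 genes up and 240 down over all genes. Macrophage and monocyte markers also differed here, with sums of 32.1, 29.3 and 30.2 CPM at day 2 and of 28.9, 8.64, 22.8, 10.5 and 16.9 CPM at day 7, against 8.74 to 18.5 CPM in control. T cell and RMA lymphoma markers summed to 433, 664 and 681 CPM at day 2, against 408 to 487 CPM in control. At day 7 their sums were 436, 504, 502, 545 and 497 CPM. Of 9 tested, 3 had an unadjusted p under 0.05, edgeR called 0 and DESeq2 called 1. The part of these markers was not tested. Ddx21 and Mybbp1a were chosen for naming after their values were seen. Mybbp1a was at 71.9, 116, 85.4 and 146 CPM in control NK cells, 93.4, 82.6 and 115 in RMA day 2, 89.7, 246 and 174 in RMA day 4 and 128, 119 and 85.4 in RMA day 9. Mybbp1a in RMA-KR–bearing mice was at 68.7, 17.8 and 42.4 CPM at day 2, 118, 152, 243, 187 and 233 at day 7 and 52.6, 115 and 85.3 at day 14. RMA-KR day 2 was lowest and all RMA-KR day 7 libraries were above it (log2 fold change 2.12, SE 0.39, edgeR adjusted p = 0.0158). Ddx21 was at 94.8, 131, 121 and 169 CPM in control NK cells, 123, 69 and 118 in RMA day 2, 168, 154 and 172 in RMA day 4 and 127, 99.7 and 131 in RMA day 9. Ddx21 in RMA-KR–bearing mice was at 69.1, 105 and 54.4 CPM at day 2, 110, 118, 242, 204 and 203 at day 7 and 101, 138 and 118 at day 14. All RMA-KR day 7 libraries were above RMA-KR day 2, and libraries 3, 4 and 5 were the 3 highest of all 24 (log2 fold change 1.20, SE 0.27, edgeR adjusted p = 0.0404).

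Without the 4 libraries, which leaves 2 against 3, edgeR called 0 members and 0 of all genes in this comparison, 4 members had an unadjusted p under 0.05, and 29 of 40 members were above 0 with a median of 0.37, against −0.18 for all genes. The log2 fold changes were then 1.64 for Mybbp1a, 0.57 for Ddx21 and 0.44 for Npm1, each with an edgeR adjusted p of 0.556. Over 16 alternatives the calls were held in 11 (Mybbp1a), 7 (Ddx21) and 7 (Npm1). Mybbp1a was lost without RMA-KR early 2 (edgeR adjusted p = 0.0883) or RMA-KR intermediate 3 (0.0551), with the replicate block (0.172) and in a fit of the 2 groups only (0.152). Ddx21 was lost without RMA-KR early 1 (0.187), 2 (0.0584) or 3 (0.17) or RMA-KR intermediate 3 (0.127), 4 (0.107) or 5 (0.112), with the replicate block (0.27) and in the fit of 2 groups (0.184). Npm1 was lost without RMA-KR early 1 (0.18), 2 (0.127) or 3 (0.0869) or RMA-KR intermediate 3 (0.103), 4 (0.071) or 5 (0.0905), with the replicate block (0.235) and in the fit of 2 groups (0.184). Adjusted p ran from 1.38e-08 to 0.556 for Mybbp1a, from 0.00361 to 0.556 for Ddx21 and from 0.00137 to 0.556 for Npm1.

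From day 7 to day 14 of RMA-KR, 3 of 40 members were above 0 and the median was −0.48, against −0.16 for all genes. EdgeR called 0 of 40 (10 at an unadjusted p under 0.05, as 13.2% of all genes; 0 by DESeq2), with 0.328% of all genes called. Without the 4 libraries, 18 members were above 0, the median was −0.07 against 0.03 for all genes, and edgeR again called 0 of 40 and 0.0668% of all genes, with 1 member at an unadjusted p under 0.05.

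Myc, a known regulator of ribosome biogenesis, was measured beside the 40 genes. Myc was at 57.5, 91.5, 75 and 63 CPM in control NK cells, 65.1, 111 and 77.2 in RMA day 2, 144, 178 and 171 in RMA day 4 and 132, 156 and 98 in RMA day 9. Myc in RMA-KR–bearing mice was at 128, 101 and 102 CPM at day 2, 126, 138, 116, 119 and 74.2 at day 7 and 161, 153 and 158 at day 14. RMA day 4, RMA day 9 and RMA-KR day 14 lay above every control, and so did RMA-KR day 2, while RMA-KR intermediate 5 at 74.2 CPM did not. Myc rose at day 4 of RMA (log2 fold change 1.20, SE 0.22, edgeR adjusted p = 0.00415), at day 9 (log2 fold change 0.84, SE 0.22, edgeR adjusted p = 0.0387) and at day 14 of RMA-KR (log2 fold change 1.13, SE 0.22, edgeR adjusted p = 0.0102), and did not pass at day 7 of RMA-KR (log2 fold change 0.67, SE 0.20, edgeR adjusted p = 0.53; 0.84, SE 0.24 and 0.733 without the 4 libraries). The day 4 and day 14 calls were held in 15 of 15 alternatives. The day 9 call was held in 8 of 15 and was lost without control 1 (edgeR adjusted p = 0.152), 3 (0.0861) or 4 (0.142), RMA late 1 (0.138) or 2 (0.309), without the 4 libraries (0.0896) and with no filter (0.187), over a range of 0.0057 to 0.309. At day 14 of RMA-KR Myc stood above control, and the median of the 40 genes was −0.02, against −0.18 for all genes. Without the 4 libraries these medians were 0.12 and −0.08. The part of Myc in the levels of the 40 genes was not tested.

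Further genes of the pathway had few edgeR calls. For 92 other ribosome biogenesis genes, 13 comparisons gave 5 calls by edgeR and 25 by DESeq2. Of these 92, edgeR called 0 at day 4 of RMA, where 2.35% of all genes were called. Of the 92, 8 had an unadjusted p under 0.05 there, against 15.9% of all genes, and DESeq2 called 3. Above 0 were 65 of the 92, with a median of 0.15, against −0.29 for all genes. At day 9, 8 had an unadjusted p under 0.05, against 14% of all genes, and DESeq2 called 4. EdgeR called 1 there, against 2.66% of all genes, and the median was 0.13. The gene called was Eif6, which keeps immature subunits apart (log2 fold change 0.64, SE 0.17, edgeR adjusted p = 0.0436). Against control, RMA-KR gave 0 calls at day 7, with a median of 0.23 (0.22 without the 4 libraries). There 11 of the 92 had an unadjusted p under 0.05, against 5.91% of all genes, and DESeq2 called 0. At day 14 edgeR called 0, DESeq2 called 2 and the median was −0.05. Of the 92, 10 had an unadjusted p under 0.05 at day 14, against 14.2% of all genes. From day 2 to day 4 of RMA, Nop9 (0.96) and Eif6 (1.17) rose, with 2.33% of all genes called. There 14 of the 92 had an unadjusted p under 0.05, against 19.6% of all genes, and DESeq2 called 3. From day 2 to day 7 of RMA-KR, Dhx37 (3.26) and Wdr36 (1.52) rose, with 0.632% of all genes called. There 20 of the 92 had an unadjusted p under 0.05, against 13.8% of all genes, and DESeq2 called 6. The 11 further genes of RNA polymerase I had 0 edgeR calls in 13 comparisons (0 to 1 at an unadjusted p under 0.05, 0 by DESeq2).

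Small nucleolar RNA host genes stood the other way from the members at day 4 of RMA. Of 17 listed, 13 were tested, their median was −0.80 on the log2 scale against −0.29 for all genes, and 1 was above 0. Snhg20 fell by 1.80 on the log2 scale against control (edgeR adjusted p = 0.0316), and Gas5 fell by 1.18 from day 2 to day 4 of RMA (edgeR adjusted p = 0.0466). In the Myc network list, Mxd1, a repressor that pairs with Max, fell by 1.08 from day 2 to day 4 of RMA and by 0.88 from day 2 to day 7 of RMA-KR. Myc, of the same list, rose from day 2 to day 4 of RMA (log2 fold change 0.96, SE 0.24, edgeR adjusted p = 0.0347). How that Myc call held in the alternatives is not given here. Of 10 mTORC1 genes, Tsc2, an inhibitor of mTORC1, fell by 1.13 at day 14 of RMA-KR against control (edgeR adjusted p = 0.02). The p53 target list had 0 edgeR calls in 13 comparisons (up to 4 at an unadjusted p under 0.05, 5 by DESeq2 in all).

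The calls of these other genes were held in part of the alternatives. Eif6 at day 9 of RMA was held in 6 of 15, and lost without control 1 (edgeR adjusted p = 0.17), 2 (0.0505), 3 (0.102) or 4 (0.101) or RMA late 1 (0.161) or 2 (0.233), with no filter (0.437) and with the replicate block (0.0842). From day 2 to day 4 of RMA, Eif6 was held in 13 of 14 and lost in a fit of the 2 groups only (0.0606), and Nop9 was held in 5 of 14 and lost without RMA early 1 (0.233) or 3 (0.0697) or RMA intermediate 1 (0.114), 2 (0.122) or 3 (0.19), with DESeq2's size factors (0.0592), with no filter (0.145) and in the fit of 2 groups (0.17). Gas5 was held in 6 of 14 and lost without RMA early 1 (0.0823) or 2 (0.186) or RMA intermediate 1 (0.137), 2 (0.0675) or 3 (0.268), with the replicate block (0.0742) and in the fit of 2 groups (0.108), and Mxd1 was held in 11 of 14 and lost without RMA early 1 (0.0873) or RMA intermediate 1 (0.093) or 3 (0.115). Snhg20 was held in 6 of 15 and lost without control 1 (0.0521), 3 (0.08) or 4 (0.0787) or RMA intermediate 1 (0.2), 2 (0.127) or 3 (0.215), with no filter (0.175) and with the replicate block (0.0821). Tsc2 was held in 10 of 15 and lost without control 2 (0.0529) or RMA-KR late 1 (0.133) or 3 (0.0692) and with the replicate block (0.0636). Eif6 at day 9 (0.0702), Nop9 (0.072), Gas5 (0.0542), Snhg20 (0.0806) and Tsc2 (0.089) were not called without the 4 libraries.

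From day 2 to day 7 of RMA-KR, Dhx37 and Wdr36 were each held in 8 of 16 alternatives and Mxd1 in 7, and without the 4 libraries each had an edgeR adjusted p of 0.556. Dhx37 was lost without RMA-KR early 2 (edgeR adjusted p = 0.16) or 3 (0.105) or RMA-KR intermediate 3 (0.0734), 4 (0.073) or 5 (0.0853), with the replicate block (0.209) and in the fit of 2 groups (0.163). Wdr36 was lost without RMA-KR early 1 (0.0601), 2 (0.113) or 3 (0.081) or RMA-KR intermediate 3 (0.0616) or 4 (0.0558), with the replicate block (0.172) and in the fit of 2 groups (0.152). Mxd1 was lost without RMA-KR early 1 (0.0702), 2 (0.218) or 3 (0.145) or RMA-KR intermediate 3 (0.119), 4 (0.105) or 5 (0.125), with the replicate block (0.27) and in the fit of 2 groups (0.163).

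Proliferation genes passed the test in larger numbers. All 14 rose at day 4 of RMA (median 2.5), 10 at day 9 (2.38) and 7 at day 14 of RMA-KR (1.79). At day 7 of RMA-KR edgeR called 0 of 14 (6 at an unadjusted p under 0.05, 0 by DESeq2; median 0.90, and 0.35 without the 4 libraries), and 7 with no filter. Leaving out the 4 libraries gave 13 at day 4 of RMA, 9 at day 9, 0 at day 7 of RMA-KR and 4 at day 14. Their sums in single libraries were 5082, 7779 and 5996 CPM at day 4 of RMA, where the 40 genes were also highest in library 2, and 5165, 6386 and 3184 CPM at day 9, where library 3 was lowest for both. At day 14 of RMA-KR they were 2925, 5272 and 2833 CPM, against 1326, 1293, 1402 and 1171 CPM in control, while the sums of the 40 genes overlapped control. In these RMA-KR day 14 libraries macrophage and monocyte markers summed to 79.9, 70.4 and 39.6 CPM, against 8.74 to 18.5 CPM in control. Plasma cell markers summed to 487, 580 and 404 CPM, against 236 to 392 CPM in control. Of these, Ighm was at 483, 427 and 364 CPM (233 to 387 in control) and Igkc at 1.25, 134 and 26.3 CPM (1.29 to 2.8 in control). T cell and RMA lymphoma markers summed to 669, 491 and 504 CPM, against 408 to 487 CPM in control. Of 9 tested, only 4 had a log2 fold change above 0 against control, and the median was −0.33. The part of proliferation or of these markers in the levels of the 40 genes was not tested.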

How the data were processed

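RNA of sorted NK cells was sequenced from 24 libraries in 7 groups, taken from the sample labels. Per the submitters' processing notes, the authors trimmed reads with cutadapt 1.10, removed ribosomal reads with Bowtie2 2.2.8, aligned to mm10 with STAR 2.5.3a and counted with HTSeq 0.6.1p1. The deposited values used are raw counts of reads per gene, 45237 genes in 24 of 112 columns. Not used were 48 columns of normalized values and 28 columns from comparisons the authors ran (DESeq2 1.16.1; log2 fold change, p-value and adjusted p). Gene positions equal those of GENCODE M21 for 45237 of 45237 genes. The strand setting of the counting is not given, so counts of overlapping genes are uncertain.

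The analysis ran in R 4.3.3 (edgeR 4.0.16, limma 3.58.1). Genes were kept with filterByExpr on the 7 groups (17097 genes), scaled with TMM, fitted with 1 mean per group over all 24 libraries, and compared by the robust quasi-likelihood F-test of edgeR, the Benjamini-Hochberg adjustment running over every gene tested. A gene was called at an adjusted p under 0.05. The common biological coefficient of variation was 0.852, and the chi-square per degree of freedom between libraries of a group was 19.4 to 112 over 31 pairs, so the spread between samples far exceeded counting error. The procedure was tested on simulated data.

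Members and lists were chosen with earlier results of these data known. Named are the 2 members with the highest mean CPM in each role, every member called against control, the 3 with the lowest p in each late comparison, and Myc. Other names were chosen after values were seen. Alternatives tried were DESeq2's size factors, DESeq2 1.42.0 with its defaults and with betaPrior, no filter, at least 10 counts in every library, a fold change above 2 as well, the replicate number as a block, the 2 groups alone, each library left out, and the libraries without the 4 that stood apart. Of the markers used in the sort, 1 is not reported here.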

Additional observations from a re-analysis of the deposited data

Results flagged for a closer look

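A single library far from the others was looked for with 24 measures in control and RMA-KR day 7, the groups of 4 and 5 libraries. The smaller groups were not tested. Among these 48 measures and groups, 2 passed the 95% limit, and chance gives about 1 in 20 groups. The summed level of the RNA polymerase I members was 411 CPM in RMA-KR intermediate 5, against 299 to 327 CPM in the other libraries of its group. Bop1 was at 81.7 CPM in control 1, against 129 to 138 CPM in the other controls.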

How the results depend on the processing

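Of the alternatives run, none reversed a direction that had passed the test. Members called changed as follows, with the cause not tested unless fewer genes or libraries are named. With no filter the count was 1 in RMA day 2, RMA day 4, RMA day 9 and RMA-KR day 2 against control and in RMA day 2 against RMA-KR day 2, 3 in RMA day 4 against RMA day 2, and 2 in RMA-KR day 14 against RMA-KR day 7. DESeq2 with its defaults and with betaPrior gave 3 and 3 in RMA day 4, 4 and 4 in RMA day 9 and 1 and 1 in RMA-KR day 7 against control, 6 and 6 in RMA day 4 against day 2, and 9 and 9 in RMA-KR day 7 against day 2, and the defaults gave 1 in RMA day 9 against day 4. Over all genes the defaults called 546 up and 409 down in RMA day 4 against control. In RMA-KR day 7 against day 2 they called 468 up and 240 down. DESeq2's size factors gave 1 in RMA day 9 against control. At least 10 counts in every library, which left 34 members, gave 4 in RMA day 9 against control, 4 in RMA day 4 against day 2 and 5 in RMA-KR day 7 against day 2. A fold change above 2 as well gave 1 in RMA day 4 and 1 in RMA day 9 against control. The 2 groups alone gave 7 in RMA day 4 against control and 0 in RMA day 4 against day 2 and in RMA-KR day 7 against day 2. For the fits of 2 groups, the share of all genes called is not given here. The count of 7 can therefore not be set against it.

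The replicate number as a block gave 1 in RMA day 4 and 1 in RMA day 9 against control, 3 in RMA day 4 against day 2, and 0 in RMA-KR day 7 against day 2 and in the other comparisons. The numbers did not pair samples.

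Without the 4 libraries, an alternative chosen after seeing the data, the count was 1 in RMA day 4 against control and in RMA day 4 against RMA-KR day 7, 2 in RMA day 4 against day 2 and 0 in RMA-KR day 7 against day 2. The members' median was 0.18 in RMA-KR day 7 against control, 0.31 in RMA day 4 against RMA-KR day 7, 0.37 in RMA-KR day 7 against day 2 and −0.07 in RMA-KR day 14 against day 7.

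Leaving out each library gave counts of 0 to 1 in RMA day 2 (1 without RMA early 3), 0 to 2 in RMA day 4 (0 without control 1 or RMA intermediate 2, 1 without control 3 or 4), 0 to 3 in RMA day 9 (0 without control 1, RMA late 1 or 2, 1 without control 3 or 4) and 0 to 1 in RMA-KR day 14 (1 without RMA-KR late 2) against control. It gave 0 to 1 in RMA day 2 against RMA-KR day 2 (1 without RMA early 3), 0 to 4 in RMA day 4 against day 2 (0 without RMA early 1 or any RMA intermediate library, 4 without RMA early 3), 0 to 5 in RMA-KR day 7 against day 2 (5 without RMA-KR intermediate 1, 0 without RMA-KR early 2 or RMA-KR intermediate 3, 1 without RMA-KR early 1 or 3 or RMA-KR intermediate 4 or 5) and 0 to 1 in RMA-KR day 14 against day 7 (1 without RMA-KR late 2). Medians over single removals were 0.33 to 0.58 in RMA day 4, 0.12 to 0.41 in RMA day 9, 0.42 to 0.64 in RMA-KR day 7 −0.07 to 0.1 in RMA-KR day 14, −0.16 to 0.01 in RMA day 2 and −0.23 to −0.12 in RMA-KR day 2 against control. In the other comparisons they were 0.07 to 0.21 in RMA day 2 against RMA-KR day 2, −0.14 to 0.05 in RMA day 4 against RMA-KR day 7, 0.16 to 0.44 in RMA day 9 against RMA-KR day 14, 0.46 to 0.61 in RMA day 4 against day 2, −0.26 to −0.1 in RMA day 9 against day 4, 0.59 to 0.84 in RMA-KR day 7 against day 2 and −0.52 to −0.38 in RMA-KR day 14 against day 7. Over all single-gene results and alternatives, 59 became called and 139 lost the call. Removal of a library brought a call for Dkc1 in RMA day 9 against control (control 2, adjusted p = 0.0468; RMA late 3, 0.0106), Bysl in RMA-KR day 14 against control (RMA-KR late 2, 0.013) and against day 7 (RMA-KR late 2, 0.00438), Ncl in RMA day 4 against day 2 (RMA early 3, 0.038), Ncl and Dkc1 in RMA-KR day 7 against day 2 (RMA-KR intermediate 1, 0.0397 and 0.0484), and Heatr1 without RMA early 3 in RMA day 2 against control (0.000801) and against RMA-KR day 2 (0.000772) and in RMA day 4 against day 2 (0.000132).

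Proliferation genes called in RMA-KR day 14 against control went from 7 to 12 with no filter and to 4 without any 1 control, without RMA-KR late 1 or 2, without the 4 libraries and with the replicate block. In RMA-KR day 7 against control they went from 0 to 7 with no filter, and at day 2 of either model from 0 to 2. The counts at day 4 and day 9 of RMA were 11 to 14 and 7 to 14. The 92 other ribosome biogenesis genes had 0 to 6 calls in RMA day 4 and 0 to 4 in RMA day 9 against control, 0 to 5 in RMA day 4 against day 2 and 0 to 6 in RMA-KR day 7 against day 2. Over all counts and medians with alternatives, 107 results moved.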
